A study of Sus scrofa domesticus with 4 samples.

Results

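XBP1, DDIT3, CALR and GMPPB are 4 of the 3029 genes that could be named on a pig array, and they stand for the unfolded protein response and for the supply of sugars to glycoproteins. They were measured by 10 of 43603 probes, chosen as every non-control probe whose transcript accession belongs to one of the 4 genes. XBP1 had 6 probes, all listed for transcript NM_001142836, GMPPB had 2 (NM_001244541), and DDIT3 (NM_001144845) and CALR (NM_001174133) had 1 each. The genes were chosen by their log2 ratios of orexin A (OXA) over non-treated tissue, which had been positive on average in these same arrays. Those ratios are therefore given as a description without a test.

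The tissue was myometrium, the muscular wall of the uterus, cut from the middle of the uterine horns of mature crossbred gilts (Large White x Polish Landrace, 7 to 8 months old) on days 15 to 16 of gestation. Explants were preincubated for 2 h and then kept for 24 h with OXA, a neuropeptide, or without it. The sample labels give OXA at 10 nM, whereas the design text gives 10 µM. Each of 4 two-colour arrays held RNA of an OXA-treated and of a non-treated culture, and the sample labels put OXA in Cy5 on arrays 1 and 3 but in Cy3 on the other two. The labelling text instead puts OXA in Cy5 throughout, so values under that reading are given as well. The deposited ratios follow the sample labels, being Cy5 over Cy3 on arrays 1 and 3 and the inverse on arrays 2 and 4. The labels name 4 gilts and 4 experiments but do not state that both RNAs of an array came from the same gilt.

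When unfolded proteins gather in the endoplasmic reticulum (ER), the sensors IRE1, PERK and ATF6 signal to the nucleus. IRE1 cuts the XBP1 transcript into a form that encodes an active transcription factor, which raises genes of protein folding, translocation and degradation. PERK slows translation and favours ATF4, which induces DDIT3 (CHOP), a transcription factor linked to cell death under lasting stress. Calreticulin (CALR) is a calcium-binding lectin chaperone that holds newly made glycoproteins in the ER until they fold. GMPPB makes GDP-mannose, the mannose donor for N-glycans and other glycans.

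The arrays did not point the same way. Over the 19505 probes with enough signal to be tested (flagged as above background for 3 or more arrays, in the OXA or in the non-treated RNA), array 2 had correlations of -0.59, -0.30 and -0.38 with arrays 1, 3 and 4, whereas arrays 1 and 4 had 0.62. Array 3 had 0.23 with array 1 and -0.06 with array 4. Over all probes, dim ones included, arrays 1 and 4 had 0.27, arrays 3 and 4 had -0.35, and arrays 2 and 4 had -0.14. On normexp-corrected and loess-normalized signals of all probes, the same pairs had 0.55, -0.16 and -0.34, nearer to the values of tested probes. These are correlations across probes, which are not independent replicates. Arrays 2 and 4 share a dye orientation, so their negative correlation leaves the direction of array 2 unsettled. The results for the 4 genes are given as labelled, and also without array 2 or with its sign turned. The scale was the scanner's processed signal, a background-subtracted intensity balanced between the dyes of an array but not between arrays. The median log2 ratio of tested probes lay between -0.05 and 0.01 on the 4 arrays. Well above background were 39.9% to 49.7% of probes with OXA and 41.5% to 61.1% without, by array. Having only 4 arrays limits the precision of every mean.

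As labelled, all 10 probes had a mean log2 ratio above 0, from 0.08 to 1.18, where 47.2% of tested probes did. On each array taken alone, 10 of 10 probes were positive on array 1 (50.2% of tested probes), 10 on array 3 (50.2%) and 9 on array 4 (50.5%). On array 2, 8 of 10 were negative (52.8%). A pattern of 1 negative value on array 2 and positive values on arrays 1, 3 and 4 was held by 7 of 10 probes (17.7%), and 2 of 10 were positive on all 4 arrays (3.96%). Since these ratios chose the genes, nothing is read from the shares. All 10 probes were well above background on 4 of 4 arrays in both channels, so each ratio was measured on both sides. The scanner software's own error of a ratio within an array was between 0.20 and 0.27 (log2), and 25 of the 40 ratios were larger than 2 such errors, with 5 of the 10 on array 2 among them. Those 5 include the positive ratio of the GMPPB probe A_72_P444127 (1.33). Negative ratios on array 2 that were not larger than 2 errors include that of CALR (-0.19).

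**Figure D1:**
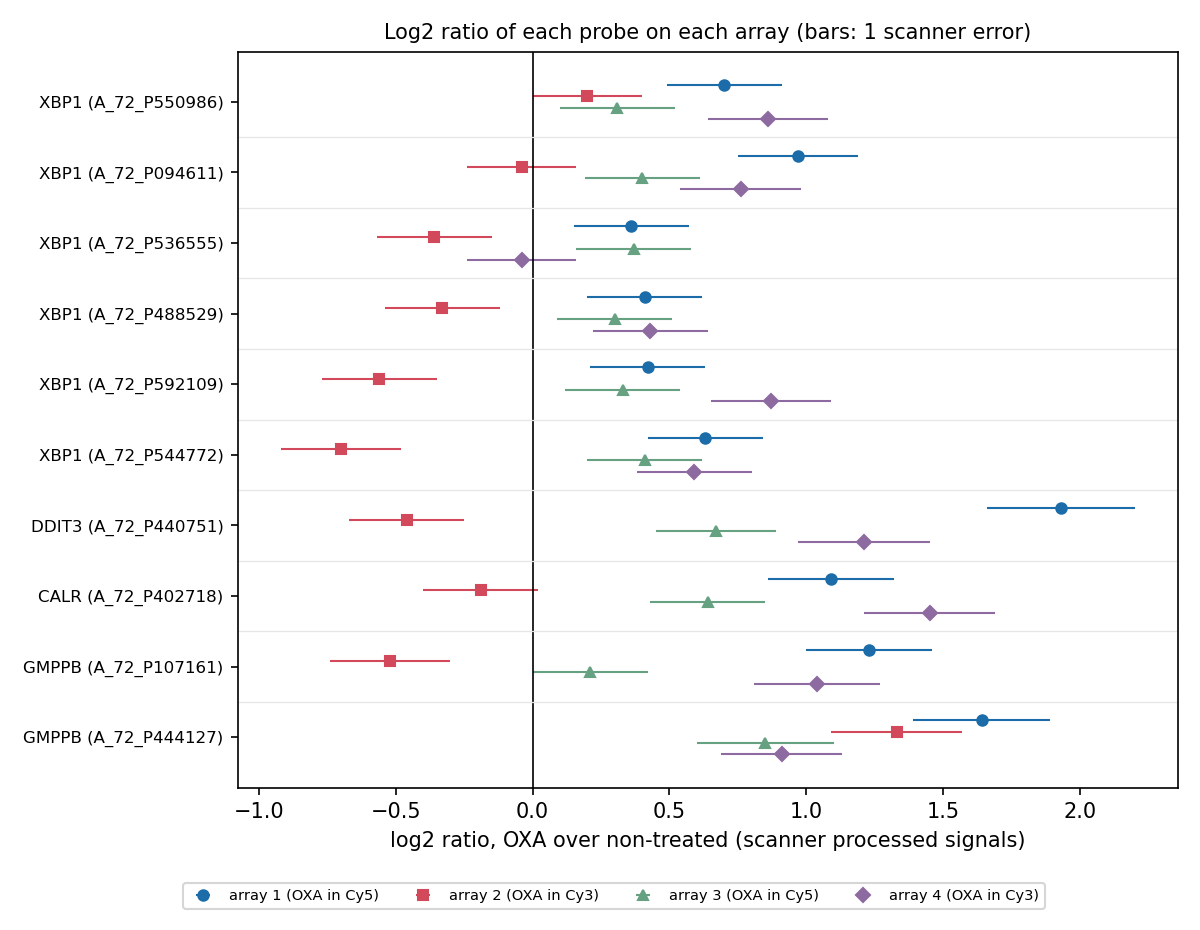
Log2 ratio of OXA over non-treated (horizontal axis) for each of the 10 probes (rows) on each of 4 arrays; points are single arrays and bars are 1 scanner error. Array 2 lies lowest in 9 of the 10 rows, at -0.19 for CALR and -0.46 for DDIT3, while the second GMPPB probe is positive on all 4 arrays.

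XBP1 was described by its brightest probe, A_72_P550986. Its processed signal with OXA was 30484, 21363, 17796 and 37716 on arrays 1 to 4. The signal without OXA on the same arrays was 18801, 18651, 14367 and 20817. OXA was the higher channel on all 4 arrays, and the 2 sets of signals overlapped. The ratios were 1.62-fold, 1.15-fold, 1.24-fold and 1.81-fold. The mean log2 ratio was 0.51 ± 0.31 (SD, n = 4), and 0.62 ± 0.28 (SD, n = 3) without array 2.

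Of the other 5 XBP1 probes, 1 gave a mean of similar size and 4 gave smaller ones. A_72_P094611 had a mean log2 ratio of 0.52 ± 0.44 (SD, n = 4), with 0.97, -0.04, 0.40 and 0.76 on arrays 1 to 4. The remaining 4 probes averaged 0.08 to 0.26, and each was negative on array 2. A_72_P536555 was also the 1 probe below 0 on array 4, at -0.04, which is within its scanner error of 0.20. Across the 6 probes the log2 ratio ran from 0.36 to 0.97 on array 1, from -0.70 to 0.20 on array 2, from 0.30 to 0.41 on array 3 and from -0.04 to 0.87 on array 4. Agreement between probes was thus closest on array 3, with a range of 0.11, and widest on array 4, with 0.90, and array 2, with 0.89. The average of all 6 probes was 0.30 ± 0.42 (SD over arrays, n = 4). The probe means spanned 0.44, against a median span of 0.17 over the 989 named genes with more than 1 tested probe. The files do not place the probes along the transcript, so the form cut by IRE1 and the uncut form were not told apart here.

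DDIT3, the effector of the PERK arm, had the largest of the 40 ratios, on array 1. Its probe A_72_P440751 read 1080.4, 556.5, 382.4 and 479.4 with OXA on arrays 1 to 4. Without OXA it read 283.7, 767.8, 240.7 and 207.9. The non-treated signal of array 2 lay above every other non-treated signal and above 3 of the 4 OXA signals, so the groups overlapped. OXA was higher by 3.81-fold, 1.59-fold and 2.31-fold on arrays 1, 3 and 4, and lower by 1.38-fold on array 2. The mean log2 ratio of 0.83 ± 1.01 (SD, n = 4) was smaller than its spread. It was 1.27 ± 0.63 (SD, n = 3) without array 2 and 0.47 without array 1, so single arrays moved it in both directions.

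CALR, the ER lectin chaperone, followed the same order of signs. Its probe A_72_P402718 had processed signals of 2151, 1149.6, 794 and 1686 with OXA. The non-treated signals were 1013, 1311, 508 and 619 on the same arrays. Again the non-treated signal of array 2 was the highest of its group and lay within the range of the OXA signals. OXA was higher by 2.12-fold, 1.56-fold and 2.72-fold on arrays 1, 3 and 4. On array 2 the log2 ratio was -0.19, within the scanner error of 0.21. The mean was 0.75 ± 0.70 (SD, n = 4), and 1.06 ± 0.40 (SD, n = 3) without array 2.

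**Figure D2:**
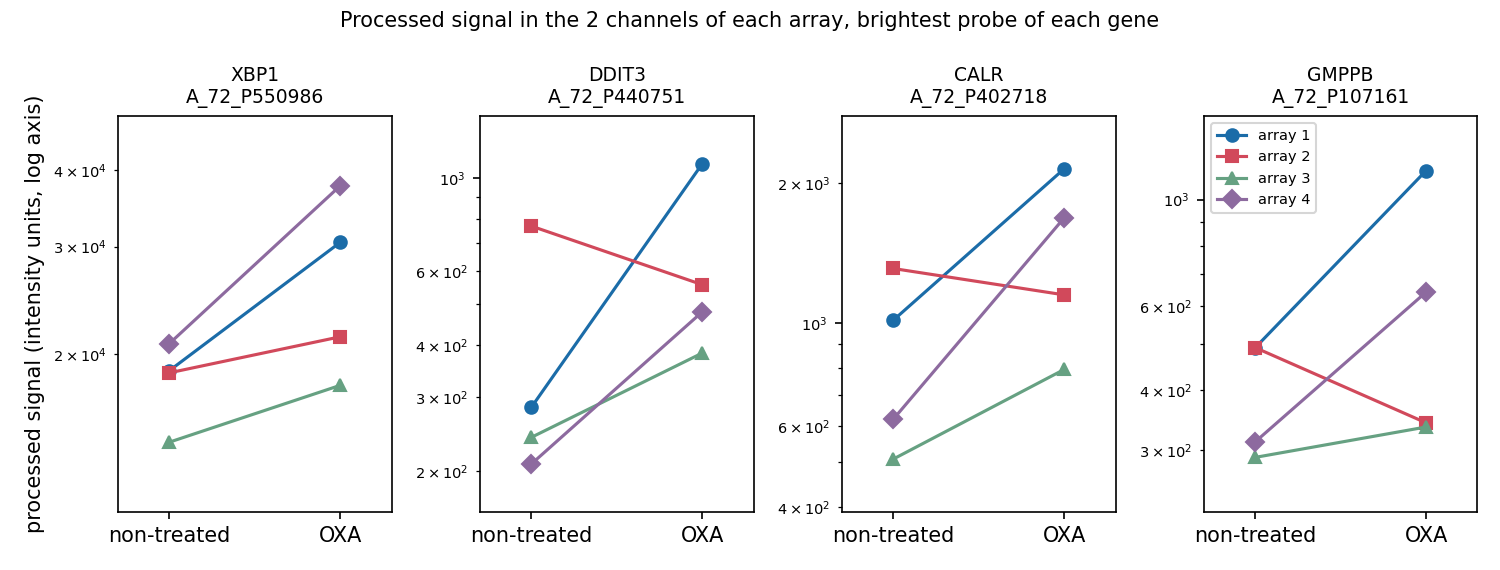
Processed signal (vertical axes, intensity on a log scale, each panel with its own range) of the brightest probe of XBP1, DDIT3, CALR and GMPPB in the non-treated and the OXA channel; each line joins the 2 channels of 1 array. The line of array 2 slopes down for DDIT3 (from 768 to 556.5), CALR (from 1311 to 1149.6) and GMPPB (from 491 to 342), and up for XBP1.

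GMPPB, the GDP-mannose enzyme, was read differently by its 2 probes. The brighter one, A_72_P107161, had signals of 1150.6, 342, 335 and 641 with OXA on arrays 1 to 4. Its non-treated signals were 490.3, 490.7, 289 and 312. OXA was higher on arrays 1, 3 and 4 and lower on array 2, and the groups overlapped. The mean log2 ratio was 0.49 ± 0.81 (SD, n = 4), and it moved to 0.83 ± 0.54 (SD, n = 3) without array 2, to 0.24 without array 1 and to 0.31 without array 4.

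The other GMPPB probe, A_72_P444127, was higher with OXA on every array. Its signals with OXA were 1376, 829, 189 and 608, and those without OXA were 442, 330.4, 105 and 323. These groups overlapped too, because both channels were dimmest on array 3. The ratios were 3.12-fold, 2.51-fold, 1.80-fold and 1.88-fold on arrays 1 to 4. The mean log2 ratio of 1.18 ± 0.37 (SD, n = 4) was the highest of the 10 probes. On array 2 the 2 GMPPB probes lay 1.85 apart on the log2 scale, at -0.52 and 1.33, with scanner errors of 0.22 and 0.24. On array 4 they lay 0.13 apart. Both are listed for the same transcript, and which of them reads GMPPB more faithfully was not tested.

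Taken over the 4 arrays, OXA and non-treated signals overlapped for 10 of 10 probes, and they did not overlap for 0.622% of tested probes. This overlap includes differences in brightness between arrays, and A_72_P550986 and A_72_P444127 overlapped although OXA was higher within every array. Over all tested probes, limma called 0 higher and 0 lower with OXA (0% in each direction, adjusted p under 0.05), with 237 (1.22%) at an unadjusted p under 0.05. The limma fit on normexp-corrected and loess-normalized signals also called 0, with 243 at that unadjusted level. With array 2 turned, limma called 0 as well, with 5264 at that level and a lowest adjusted p of 0.0686. The turn was chosen with the negative correlations of array 2 known. More low p-values follow from that choice, and nothing is read from them. With OXA taken to be in Cy5 throughout limma called 0, with 624 at an unadjusted p under 0.05 and a lowest adjusted p of 0.31. Without array 2, limma called 1104 probes, 264 higher and 840 lower. That fit had 1 residual degree of freedom per probe and gave all probes the same variance. Its count is therefore not comparable with those from 4 arrays.

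The ratios depend on how the dyes are read. With the sign of array 2 turned, all 10 probe means were above 0 (51.8% of tested probes) and ran from 0.26 to 1.07. DDIT3 then had 1.07 ± 0.65, CALR 0.84 ± 0.54 and the brighter GMPPB probe 0.75 ± 0.47 (SD, n = 4). In the same reading 7 of the 10 probes were positive on all 4 arrays (17.7%), and A_72_P444127 of GMPPB was not among them, with a mean of 0.52 ± 1.28. Turning array 2 puts OXA in Cy5 on every array but array 4. The plain means of that reading therefore keep part of any dye difference, as do the means without array 2. When OXA was taken to be in Cy5 throughout, 9 of 10 means stayed above 0 (52.5%), from -0.01 to 0.46. The brightest XBP1 probe was the exception at -0.01 ± 0.67 (SD, n = 4).

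**Figure D3:**
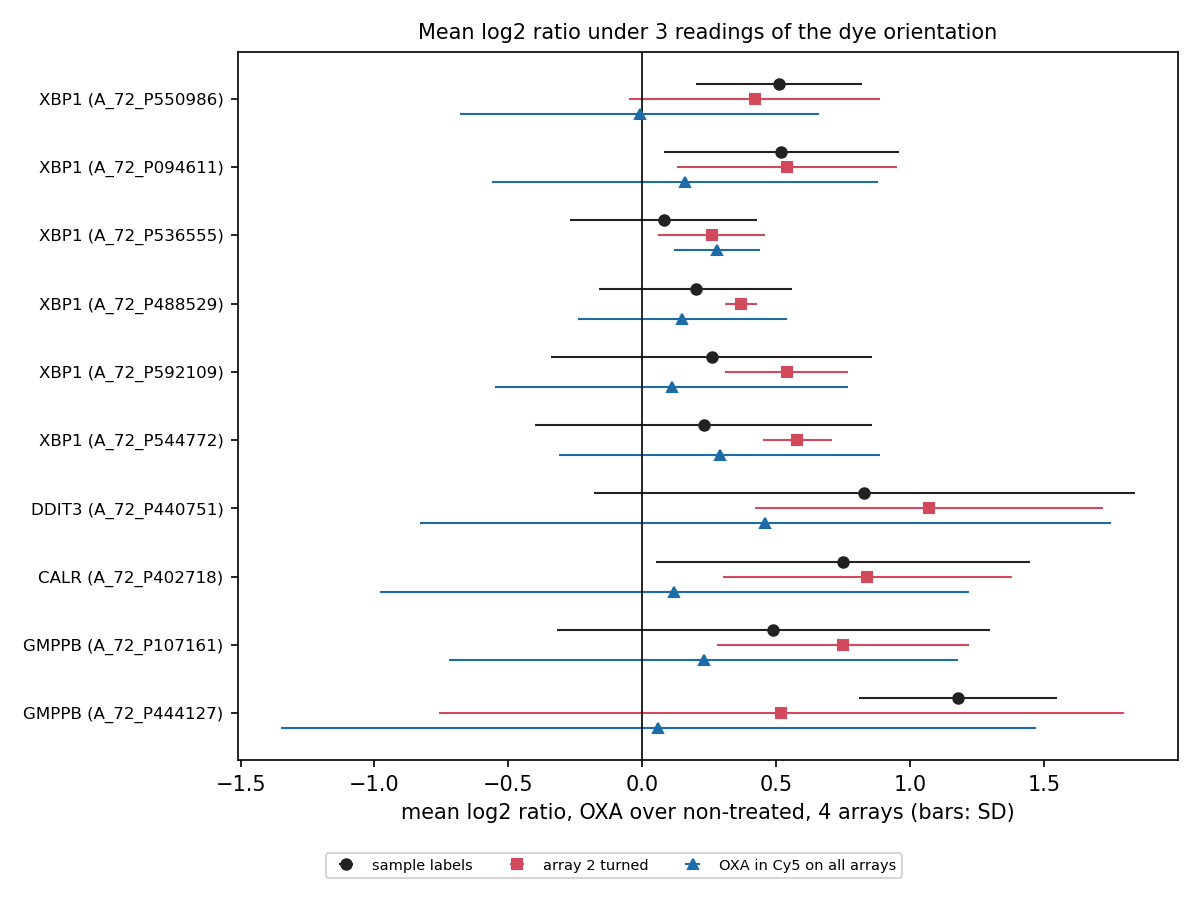
Mean log2 ratio over 4 arrays (horizontal axis; bars are SD, n = 4) of the 10 probes under the sample labels, with array 2 turned, and with OXA always in Cy5. For DDIT3 the means are 0.83, 1.07 and 0.46, and for the brightest XBP1 probe 0.51, 0.42 and -0.01.

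Under the sample labels the dyes are balanced, so the dye term of the fit is separate from the OXA term and could be tested for these probes. Its Cy5 over Cy3 log2 coefficients ran from -0.01 to 0.46 and are the same values as the means with OXA in Cy5 throughout, under which dye and OXA cannot be told apart. The coefficient was highest for DDIT3 (0.46 ± 0.39, SE). limma called 0 of them (adjusted p = 1 for each, lowest unadjusted p = 0.279), and 0% of tested probes.

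Likeness among the 4 genes was measured as the mean absolute difference in log2 ratio over the 4 arrays, using the brightest probe of each. CALR and GMPPB differed least, by 0.33, and DDIT3 lay 0.34 from GMPPB and 0.35 from CALR. XBP1 lay 0.38 from GMPPB, 0.42 from CALR and 0.65 from DDIT3. Among 1981 other named genes, the 3 nearest to XBP1 were the splicing regulator PTBP1 (0.056), the oxytocin gene OXT (0.075) and the cyclin CCND2 (0.086). PTBP1 had log2 ratios of 0.60, 0.23, 0.31 and 0.94, positive on every array like the XBP1 probe used. That probe was the only 1 of 6 XBP1 probes above 0 on array 2. The nearest to DDIT3 were SLC10A7 (0.106), the histone chaperone ASF1B (0.117) and ATP4B, a subunit of the gastric proton pump (0.142). SLC10A7 had 1.74, -0.57, 0.67 and 1.08, with array 2 below 0. The nearest to CALR were SIRPA, an inhibitory receptor of myeloid cells (0.108), the TNF receptor TNFRSF1B (0.118) and NLRC5, a regulator of MHC class I genes (0.136). The nearest to GMPPB were TOMM34 (0.086), CDK5R1 (0.090) and the zinc transporter SLC30A3 (0.090). All these distances hold for the probes used, and the 2 GMPPB probes lay 1.85 apart on array 2.

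The rest of the pathway was covered by 6 lists of 151 genes, of which 40 could be measured, each by its brightest probe. limma called 0 of the 40 higher and 0 lower, where it called 0% of all tested probes in each direction. The counts of 0 called by list below follow from this and are not particular to the pathway. Their median log2 ratio was 0.41, -0.16, 0.04 and 0.39 on arrays 1 to 4, beside array medians of 0.00, -0.05, 0.00 and 0.01 for all tested probes. The mean ratio was above 0 for 32 of 40 genes (47.2% of all tested probes). This held for 31 of 40 with array 2 turned (51.8%), for 31 of 40 without array 2, and for 26 of 40 with OXA taken to be in Cy5 throughout (52.5%). The sign pattern of array 2 against the others was held by 13 of 40 (17.7%). The percentages are over all tested probes, of which 4488 of 19505 were named, and not over the brightest probes of named genes. The 40 genes share the same 4 arrays and are not independent.

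Among sensors and regulators, 5 genes were measured and 0 were called, with a list median of 0.15 (-0.02 for all tested probes). ATF4, the transcription factor downstream of PERK, had 0.15 ± 0.80 (SD, n = 4), with -0.85 on array 3 and 1.06 on array 4. TMBIM6, a calcium leak protein of the ER membrane, had 0.20 ± 0.48, and the ER-anchored transcription factor CREB3 had 0.27 ± 0.36. NFYB, a subunit of the CCAAT-binding factor NF-Y, had -0.32 ± 0.34 and was below 0 on all 4 arrays.

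Of the genes listed as targets of PERK, ATF4 and CHOP, 4 were measured and 0 called, with a median of 0.39. DDIT4, an inhibitor of mTORC1 that hypoxia also induces, had 0.94 ± 0.27 (SD, n = 4), and on array 2 it was 1.29 where DDIT3 was -0.46. VEGFA, an angiogenic factor, had 0.68 ± 0.31. With array 2 turned the means were 0.29 for DDIT4 and 0.45 for VEGFA, and with OXA taken to be in Cy5 throughout they were -0.04 and -0.03. CEBPB, a bZIP partner of CHOP, had 0.09 ± 1.23, with -1.62 on array 2. BCL2L11, a promoter of apoptosis, had 0.05 ± 0.49.

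The ER chaperones and folding enzymes had 7 measured genes, 0 called, and a median of 0.08. HSP90B1, the ER form of HSP90, had 0.03 ± 0.65, and CANX, the membrane-bound relative of CALR, had 0.08 ± 0.27 (SD, n = 4). The means of the 8 tested HSP90B1 probes ran from -0.05 to 0.43. CANX was 0.33 on array 2 and -0.26 on array 3, the opposite signs to CALR. PDIA4, a protein disulfide isomerase, had 0.16 ± 0.70 and DNAJB11, a co-chaperone, 0.17 ± 0.43, both below 0 on array 2 only.

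Translocation and ER-associated degradation had 7 measured genes, 0 called, and a median of 0.21, with -0.50 on array 2. VCP, the ATPase that extracts proteins from the ER membrane, had 0.13 ± 0.67. SPCS1, a signal peptidase subunit, had 0.21 ± 0.28 (SD, n = 4), SSR1, of the translocon, 0.03 ± 0.25, and the translocation factor SEC62 -0.16 ± 1.39. VCP and SEC62 had 5 tested probes each, with means from -0.06 to 0.66 and from -0.27 to 0.16.

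GDP-mannose and lipid-linked oligosaccharide synthesis, the pathway of GMPPB, had 9 measured genes, 0 called, and a median of -0.01. PMM1, a phosphomannomutase, had -0.01 ± 0.10 (SD, n = 4). DPM1, of the dolichol-phosphate mannose synthase, had -0.23 ± 0.33, and the mannosyltransferase ALG2 -0.26 ± 1.01. ALG10, a glucosyltransferase, had -0.01 ± 1.05 (SD, n = 3), its spot on array 1 being left out as an outlier. N-glycan transfer and trimming had 8 measured genes, 0 called, and a median of 0.12. The oligosaccharyltransferase subunits DAD1, RPN2 and DDOST had 0.43 ± 0.18, 0.22 ± 0.22 and 0.26 ± 0.35 (SD, n = 4), DAD1 with positive values on all 4 arrays. The means of the 8 tested RPN2 probes ran from -0.16 to 0.22. MGAT1, which starts complex N-glycans, had 0.05 ± 0.36.

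**Figure D4:**
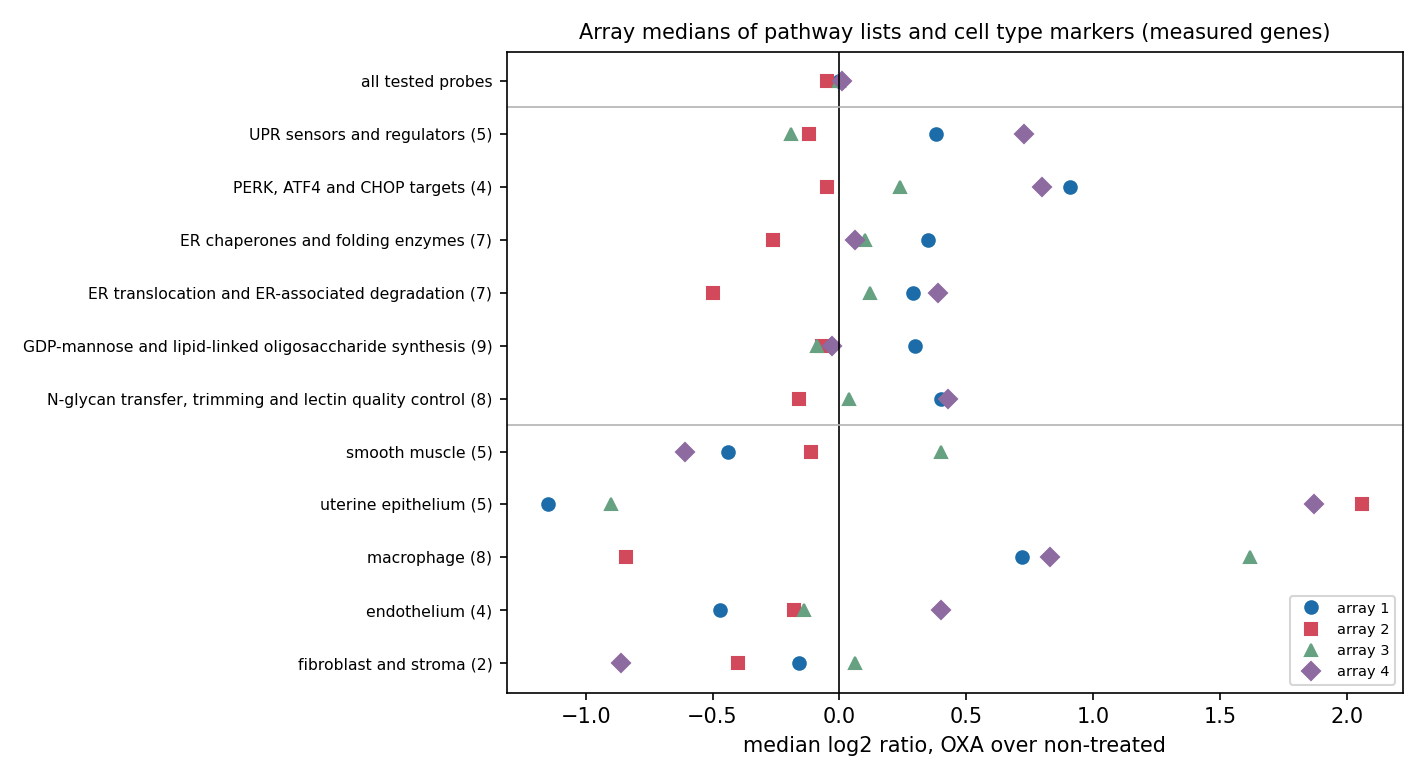
Median log2 ratio of OXA over non-treated (horizontal axis) of all tested probes, of 6 pathway lists and of 5 sets of cell type markers (rows, with the number of measured genes) on each of 4 arrays. Array 2 is lowest for 4 of the 6 pathway lists, while epithelial markers are at -1.15, 2.06, -0.90 and 1.87 on arrays 1 to 4.

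Markers of other cell types moved with the arrays. In such bulk tissue, fewer cells of a type and less RNA per cell cannot be told apart. Of 11 macrophage markers 8 were measured, with medians of 0.72, -0.84, 1.62 and 0.83 on arrays 1 to 4, the same signs as DDIT3 and CALR. Those signs were held by 6 of the 8 markers (17.7% of tested probes). CD163 had -0.64, 0.30, 1.18 and -0.32, and CD14 was -0.06 on array 3. The summed signal of the 8 markers ran from 1376 to 10101 with OXA and from 1601 to 5667 without. Of 8 epithelial markers 5 were measured and CLDN4 did not pass the filter on signal. Their medians of -1.15, 2.06, -0.90 and 1.87 had the opposite sign to CALR on arrays 1, 2 and 3, and their summed signal ran from 2447 to 10530 with OXA and from 2428 to 6057 without. SPP1 and KRT8 were above 0 on array 1, at 0.09 and 0.30, and SPP1 was -0.06 on array 3. The summed epithelial signal on array 1 was 2447 with OXA and 2428 without. Of 9 smooth muscle markers 5 were measured (ACTA2, DES, CNN1, MYLK and SMTN), as the tissue label has it, with medians of -0.44, -0.11, 0.40 and -0.61 and summed signals from 202439 to 462534 with OXA and from 172389 to 568912 without. Endothelial markers (4 of 6 measured) had medians of -0.47, -0.18, -0.14 and 0.40, with summed signals from 3817 to 10519 with OXA and from 5052 to 7471 without. DCN and LUM, the 2 measured stromal markers of 5, had medians of -0.16, -0.40, 0.06 and -0.86, with summed signals from 31754 to 41533 with OXA and from 36287 to 53654 without. Of 8 lymphocyte and plasma cell markers 4 were named on the array (CD3E, CD3D, CD79A and CD2), and 0 of them passed the filter on signal. The part of these cell types in the ratios of XBP1, DDIT3, CALR and GMPPB was not tested.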

How the data were processed

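Per the file headers, the authors scanned the arrays with Agilent Feature Extraction 10.7.3.1, whose deposited files give linear spot intensity, processed signals and flags. Per the file headers, its deposited log10 ratio of the processed signals (Cy5 over Cy3) comes with an error estimate. The deposited value table holds log2 ratios. It matched the ratio of the scanner's processed signals, as OXA over non-treated, within 0.001 for 100.0% of probes above background in both channels, with column medians of 0.10, 0.10, -0.19 and 0.07. The table was not centred further, and the labels do not describe its making.

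Ratios here are log2 of the processed signals, with 1417 control spots and outlier-flagged spots left out and no pseudocount. Accessions without versions were matched to a RefSeq table of Sscrofa11.1, which named 6700 probes and left 36903 unnamed here. Probes were tested that passed the scanner's background flag in the OXA or the non-treated RNA on 3 or more of the 4 arrays. limma 3.58.1 in R 4.3.3 fitted an OXA term (sign by dye) and a dye term, two-sided, adjusted by Benjamini-Hochberg at 0.05. The fit was tested on simulated data. All arrays share 1 slide, so no slide block could be fitted. The 4 genes, the lists and the array 2 alternative were chosen with earlier results of these data known. Pathway genes named in the comparison are the 4 brightest of each list; those in the closing section were chosen after their values were seen. The planned promoter search was not run.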

Additional observations from a re-analysis of the deposited data

Results flagged for a closer look

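Of 58 sets of 4 array values tested with Dixon's ratio, 1 had an array far from the other 3. Chance gives about 5% of such sets. The GDP-mannose and lipid-linked oligosaccharide list had a median log2 ratio of 0.30 on array 1 and of -0.09 to -0.03 on the other arrays. ALG10 has no value on array 1, so that median rests on the other members of the list.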

How the results depend on the processing

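Of 32 values of the 4 genes' brightest probes under the alternatives, 31 lay within 1 SD of the value as reported and 31 were positive. The exception in both was XBP1 with OXA in Cy5 on all arrays, at -0.01. These counts leave out the deposited table, which holds the same ratios, and the averages over all probes of XBP1 (0.30) and GMPPB (0.84). Neither count tests the ratios. A mean of 4 arrays cannot move by 1 SD when 1 array is left out, and the genes were chosen for positive means. Leaving out each array in turn gave 0.40 to 0.62 for XBP1, 0.47 to 1.27 for DDIT3, 0.51 to 1.06 for CALR and 0.24 to 0.83 for GMPPB. With normexp and loess the values were 0.44, 0.63, 0.59 and 0.36 in the same order. limma called 0 probes for OXA in each fit with all 4 arrays, where 237 had an unadjusted p under 0.05 as labelled. Leaving out 1 array gave between 1 and 1104 calls (1104 without array 2). The dye term called 0 with all arrays and between 12 and 1156 with 1 array left out (1156 without array 4). With 3 arrays left, only the 2 of like dye orientation give an estimate of spread, and limma gave all probes the same variance. The fit used the ratio of treated over non-treated RNA within each array, so the comparison was already paired by array. No further pairing was possible because the single group shares no replicate number with another. Arrays, not depth, limit the precision. No member was near background, the lowest member signal being 105.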

Other observations

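Other genes of the ER and of sugar supply shared the signs of DDIT3 and CALR, below 0 on array 2 and above 0 on arrays 1, 3 and 4. The genes named here were chosen after their values were seen, and limma called 0 of them, as of all tested probes. The signs were shared by 13 of 40 measured pathway genes, 3 of 9 in the GDP-mannose list, and by 17.7% of all tested probes. SEC61A1, the core of the protein-conducting channel, had log2 ratios of 1.03, -0.57, 0.29 and 0.76 on arrays 1 to 4. DERL1, of the retrotranslocation machinery, had 0.79, -0.58, 0.16 and 0.74, and UBE2J1, a ubiquitin-conjugating enzyme of the ER, had 0.97, -0.55, 0.12 and 0.39. In the sugar pathways, MPI, which makes mannose 6-phosphate, had 0.47, -0.20, 0.39 and 1.05. GFPT1, the entry enzyme of the hexosamine pathway, had 1.29, -0.66, 0.17 and 0.36, and MPDU1, needed for the use of dolichol-phosphate mannose, had 0.53, -0.94, 0.33 and 1.07. Other members went the opposite way on several arrays. SEC62 had -1.37, 1.71, 0.06 and -1.02, and ALG2 had -1.11, 1.12, -0.15 and -0.92. The ER oxidase ERO1A had 0.07, 0.54, 0.10 and -0.64, with the opposite sign on arrays 2 and 4 only. The means of the 2 tested ERO1A probes were 0.02 and 0.40.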
